A study of Mus musculus with 6 samples.

Results

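The adipocyte genes are 10 genes that mark fat cells or that fat cells use to take up, store and release lipid: Fabp4, Plin1, Adipoq, Lep, Cidec, Cfd, Lpl, Pparg, Lipe and Retn. They were found by symbol, present or former, among the 27573 genes named on a 2-colour Agilent array. All 10 were on the array, with 16 probes on 34 spots. Plin1 was printed under its older symbol Plin, and 1 of the 3 Lipe probes was printed under the older name 4933403G17Rik.

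RNA came from 6 tumors, each on its own array. Hepa1-6 is a mouse hepatoma line, and its cells had been injected under the skin of female C57Bl/6 mice. The 3 tumors taken at day 15 after injection are numbered 303, 313 and 318, and the 3 taken at day 10 are numbered 302, 307 and 312. Tumor RNA carried the dye Cy5. The other dye, Cy3, was on a comparison sample described alike for every array, blood RNA of a female C57Bl/6 mouse that had received no treatment. The labels do not say whether each tumor came from a separate mouse, so p-values measure only the spread between these 6 samples. A subcutaneous tumor grows in host tissue, and a piece of it can hold host fat, muscle, vessels and skin. Fewer cells of a type and less RNA per cell cannot be told apart in such bulk samples.

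White adipocytes store triglyceride in one large droplet. Its surface carries perilipin (Plin1), which controls access of lipases, and Cidec, which makes droplets fuse and grow. Lipoprotein lipase (Lpl) frees fatty acids from blood lipoproteins at the vessel wall, Fabp4 carries them inside the cell, and hormone-sensitive lipase (Lipe) releases them again when fat is broken down. Adipoq (adiponectin), Lep (leptin), Cfd (adipsin, also complement factor D) and Retn (resistin) are secreted by fat cells. Pparg is the nuclear receptor that drives adipocyte differentiation, and C/EBP factors act beside it. Fabp4, Lpl and Pparg are not restricted to fat: macrophages express all 3, capillary endothelium also expresses Fabp4, and skeletal muscle also expresses Lpl.

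Promoters of 3 members that were high in the same tumors are shown because each holds a C/EBP-type word, and that of Cfd because its tumor signal spanned the widest range within day 15. The stretches are the 250 bases before the annotated start, read 5′ to 3′ on the gene's strand, from RefSeq on GRCm38.p6. Capitals mark TTGCNNAA, searched on both strands.
Lep, chr6:29059971-29060220, plus strand: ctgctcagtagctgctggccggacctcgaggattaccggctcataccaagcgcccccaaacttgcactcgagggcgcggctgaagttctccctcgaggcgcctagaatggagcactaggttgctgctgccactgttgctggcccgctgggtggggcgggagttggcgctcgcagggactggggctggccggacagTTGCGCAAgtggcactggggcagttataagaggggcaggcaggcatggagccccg
Plin1, chr7:79732777-79733026, minus strand: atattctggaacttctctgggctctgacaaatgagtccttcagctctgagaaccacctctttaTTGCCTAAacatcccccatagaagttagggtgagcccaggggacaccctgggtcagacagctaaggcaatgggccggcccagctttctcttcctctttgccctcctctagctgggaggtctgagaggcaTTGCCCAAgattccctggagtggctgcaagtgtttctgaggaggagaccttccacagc
Cidec, chr6:113434765-113435014, minus strand: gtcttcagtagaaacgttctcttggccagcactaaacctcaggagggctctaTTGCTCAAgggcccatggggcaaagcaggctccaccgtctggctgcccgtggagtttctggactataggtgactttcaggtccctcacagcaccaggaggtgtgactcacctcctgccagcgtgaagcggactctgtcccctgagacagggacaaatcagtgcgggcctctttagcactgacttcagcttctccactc
Cfd, chr10:79890603-79890852, plus strand: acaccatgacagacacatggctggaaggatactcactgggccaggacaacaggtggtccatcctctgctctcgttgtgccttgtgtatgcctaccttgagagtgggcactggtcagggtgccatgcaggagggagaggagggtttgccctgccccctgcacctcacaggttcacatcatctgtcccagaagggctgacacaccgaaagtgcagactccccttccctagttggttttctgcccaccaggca
Windows of 8 members were in the table, 12 windows in all, since Cidec, Pparg and Lipe have several starts. The word was found in 4 of these windows, in Lep, Plin1, Cidec and Pparg. In Lep it begins 55 bases before the start and is the full palindrome TTGCGCAA. Plin1 has it 187 and 58 bases before the start, Cidec 198 bases before 1 of its starts, and Pparg 215 and 16 bases before 1 of its 3 starts. Of all 32851 windows in the table, 9.56% hold TTGCNNAA and 0.164% hold TTGCGCAA, which is one form of the longer search. The PPAR:RXR type repeat, AGGTCA followed by any 1 base and AGGTCA again, on either strand, was in none of the 12 windows and in 0.0335% of all windows. These are matches of letters and say nothing of binding. Fabp4 and Lpl were not among the windows used here.

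Before the results, 3 facts on the arrays matter. Between 52.4% and 58.5% of spots were well above background in Cy5, and between 47.5% and 52.8% in Cy3. On the array of day 10 tumor 312, signal was lost over a central area that held 15.6% of the spots, and the single Adipoq spot lies in it. Each slide held the tumors of one day, so slide and day cannot be told apart. Per the file headers, day 15 tumors 303, 313 and 318 lay at positions 1, 2 and 3 of their slide, and day 10 tumors 302, 307 and 312 at positions 1, 2 and 3 of theirs. Marker genes of the hepatoma line (10 genes such as Alb and Afp) had a median log2 ratio of 2.60, -1.56 and 3.45 in day 15 tumors 303, 313 and 318, against 2.47, 2.25 and 2.96 in day 10 tumors 302, 307 and 312. Tumor 313 thus went against its label by these genes. It was the lowest of the 6 tumors in 9 of the 10, with Gpc3 the exception, and Alb was at -2.48 and Afp at -4.75 there, against at least 2.26 and 2.22 in the other 5 tumors.

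Most of the adipocyte genes were high in the same tumors. For Plin1, Cidec, Cfd, Adipoq and Retn, day 15 tumors 303 and 313 carried the highest log2 ratios, day 10 tumors 302 and 307 lay between, and day 15 tumor 318 and day 10 tumor 312, both at position 3 of their slides, carried the lowest. For Lpl and Lipe the 3 day 10 tumors and 318 lay close together in no such order. Of 10 members, 10, 10 and 7 were well above background in Cy5 in day 15 tumors 303, 313 and 318, against 9, 9 and 6 in day 10 tumors 302, 307 and 312. Levels are given as the log2 ratio, tumor over blood reference, where 1 unit is a doubling. The probe with the brightest signal stands for its gene.

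By ratio, the droplet genes Cidec and Plin1 had the widest ranges of the members within day 15. Plin1 had log2 ratios of 5.53, 5.55 and 0.81 in day 15 tumors 303, 313 and 318, against 1.53, 2.23 and 0.09 in day 10 tumors 302, 307 and 312. Its Cy5 signal was not well above background in tumors 318 and 312, and its Cy3 signal was so only in 303 and 313, so the ratios of the other 4 tumors are limited by background rather than levels. Cidec had log2 ratios of 4.92, 5.40 and -0.72 in day 15 tumors 303, 313 and 318, against 1.41, 2.66 and -0.66 in day 10 tumors 302, 307 and 312. Cidec was well above background in both dyes on all 6 arrays, so here the low values were measured. In tumors 318 and 312 its signal was below that of the reference dye, with no dye swap. Within day 15 its ratio differed 69.6-fold between tumors, and the days overlapped for both genes.

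Among the secreted products, Cfd was the brightest in Cy5. Its log2 ratios were 6.95, 7.07 and 3.30 in day 15 tumors 303, 313 and 318, against 5.60, 6.16 and 3.21 in day 10 tumors 302, 307 and 312. Even the lowest tumor therefore had more Cfd signal than the reference, and tumors 302 and 307 lay between 303 or 313 and 318. Adipoq had log2 ratios of 5.58, 5.69 and 1.67 in day 15 tumors, in the same tumor order, against 3.53, 4.14 and -0.02 in day 10 tumors. The last value is the spot in the damaged area, where neighbouring spots were 12.5-fold dimmer in Cy5 and 13.1-fold dimmer in Cy3 than on the other arrays, and it was not well above background. Adipoq in tumor 312 is therefore unknown.

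Retn had log2 ratios of 3.02, 3.25 and 0.14 in day 15 tumors 303, 313 and 318, against 0.98, 1.91 and 0.03 in day 10 tumors 302, 307 and 312. A second Retn probe gave 3.84, 4.31 and -0.17 at day 15, against 0.83, 1.51 and 0.00 at day 10, and neither probe was well above background in 318 or 312. Both probes thus placed the tumors in the same order, apart from the lowest pair.

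Lep was the faintest member. On 10 spots of 1 probe, its mean Cy5 intensity was 305, 679 and 131 in day 15 tumors 303, 313 and 318, against 157, 170 and 139 in day 10 tumors 302, 307 and 312. All 10 spots were well above background in tumors 303 and 313, at most 1 in any other tumor. The log2 ratios were 1.46, 2.82 and -0.10 at day 15, against 0.13, 0.26 and -0.01 at day 10. Because no day 10 array measured it, its difference is limited by background. The mean Cy5 signal of all 3 day 15 arrays came to 2.25-fold that of day 10. For each day 10 array the higher of the probe's own signal and the dimmest signal well above background was used. Of the day 15 arrays 2 measured Lep, and tumor 318 entered at a signal limited by background, so 2.25 is not a strict lower bound. With 2 measured arrays Lep did not enter the fit across genes.

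Fabp4, the fatty acid carrier, was measured by 3 probes, all well above background on all arrays. The brightest had log2 ratios of 4.51 and 4.56 in day 15 tumors 303 and 313, against 3.61, 3.07 and 2.69 in day 10 tumors 302, 307 and 312. In tumor 318 the scanner marked this spot as an outlier and it was left out. The other probes give that tumor's level: a second read 5.45, 5.55 and 2.66 at day 15, against 4.11, 3.36 and 2.85 at day 10, and the faintest 4.47, 4.43 and 1.99 at day 15, against 3.20, 2.63 and 2.07 at day 10. By both, tumor 318 was the lowest of all 6, although the second probe's spot lies in the damaged area in tumor 312. The gap between days shown by the brightest probe thus omits the day 15 tumor that was low in the other probes.

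The 3 remaining members varied far less. Lpl had log2 ratios of 3.83, 4.41 and 3.02 in day 15 tumors 303, 313 and 318, against 3.08, 3.02 and 3.26 in day 10 tumors 302, 307 and 312, and its second probe gave 2.96 to 3.96 at day 15 and 2.75 to 2.98 at day 10. Pparg had 1.73, 2.33 and 0.87 at day 15, against 1.33, 1.26 and 1.01 at day 10. Lipe had 1.93, 1.98 and 0.85 at day 15, against 1.06, 0.97 and 1.03 at day 10. By these probes tumors 303 and 313 were the highest 2 of 6 for all 3 genes, and 318 the lowest (with 307 at the same rounded value for Lpl). By their second probes the lowest tumor was 312 for Lpl and for Lipe. By the first probes the whole range was 1.39 for Lpl, 1.47 for Pparg and 1.13 for Lipe. A second Lipe probe ran lower, between 0.31 and 1.55 at day 15 and between 0.27 and 0.54 at day 10, and the other was not well above background on any array.

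**Figure D1:**
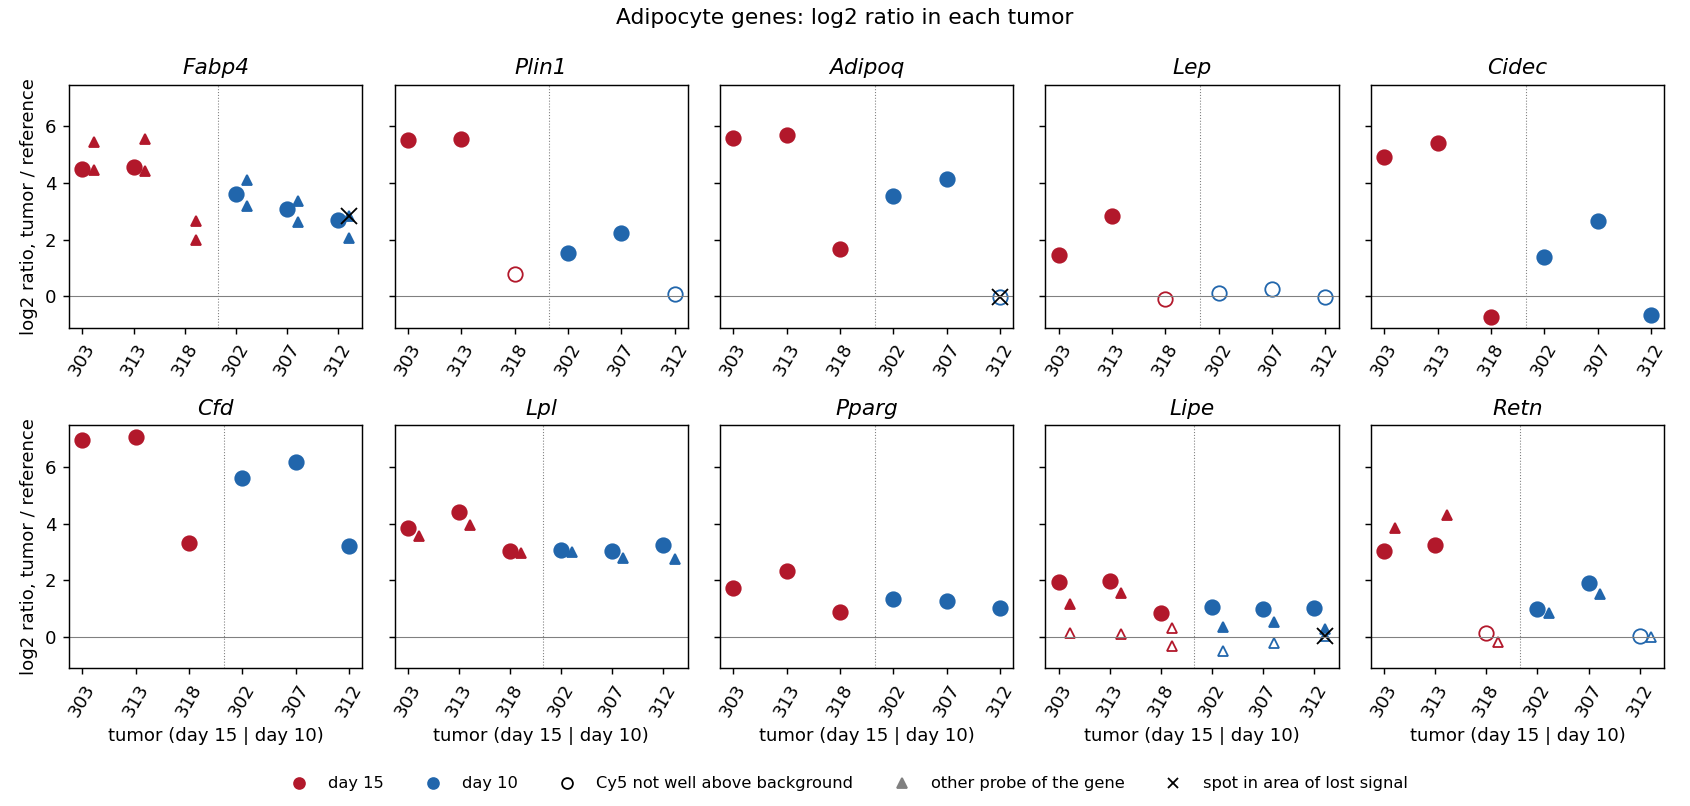
Log2 ratio, tumor over blood reference (y axis), of each adipocyte gene in the 3 day 15 tumors (red, left) and the 3 day 10 tumors (blue, right). Circles are the probe that stands for the gene, triangles its other probes, open marks spots not well above background in Cy5, and crosses spots in the area of lost signal of tumor 312. Plin1, Adipoq, Cidec, Cfd and Retn stand far higher in 303 and 313 than in 318, while Lpl, Pparg and Lipe stay within 1.47 units.

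Over the 8 members with a value in every tumor, the mean of their log2 ratios, each centred on its own mean, was 1.52, 1.80 and -1.42 in day 15 tumors 303, 313 and 318, against -0.35, 0.13 and -1.67 in day 10 tumors 302, 307 and 312. Tumor 318 was the lowest of the 3 day 15 tumors for 8 of these 8, as it was for 41.1% of all 15635 genes with 6 values. The lowest of all 6 tumors was 318 or 312 for 8 of 8 (41.8% of all genes), and the highest was 303 or 313 for 8 of 8 (53% of all genes).

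A range of at least 2 log2 units within day 15 was seen in 5 of the 9 members tested, Plin1, Adipoq, Cidec, Cfd and Retn, beside 4.46% of all 15802 genes tested. Within day 10 the same width was reached by 4 members, Plin1, Adipoq, Cidec and Cfd, beside 1.9% of all genes, with Adipoq there resting on the damaged spot. The day 15 range of Cidec, 6.12, was wider than that of 99.9% of all genes, and that of Plin1, 4.74, than that of 99.7%. Fabp4 belongs with them by its other probes: those 2 spanned 2.90 and 2.48 units within day 15.

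**Figure D2:**
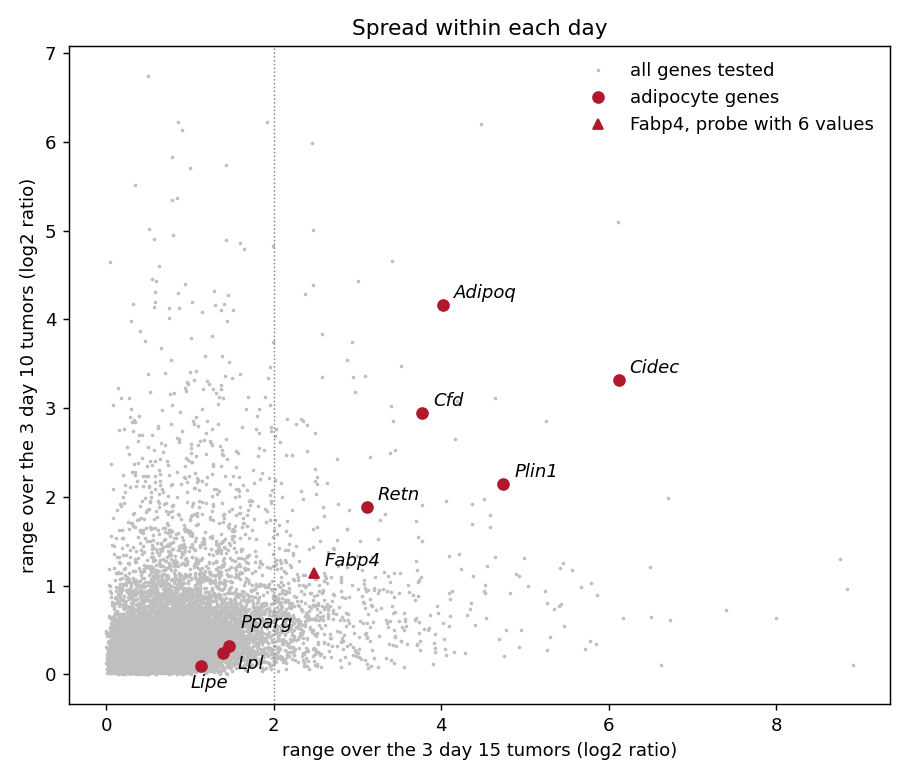
Range of the log2 ratio over the 3 day 15 tumors (x axis) and over the 3 day 10 tumors (y axis) for all 15802 genes tested (grey) and the adipocyte genes (red). The dotted line marks 2 units. Plin1, Adipoq, Cidec, Cfd and Retn lie to its right with Fabp4 (triangle, by its faintest probe), and Lpl, Pparg and Lipe lie to its left, with day 15 ranges wider than those of 88.5%, 89.9% and 81.1% of genes.

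Set against day 10, the day 15 mean was above for all 9 members tested, beside 54.9% of all genes. No member passed limma's test at an adjusted p of 0.05, beside 2 genes, 0.0127%, called higher among all 15802, and 1 member, Fabp4, had an unadjusted p under 0.05, beside 3.85% of all genes. The difference was at least 1 log2 unit in 5 members, beside 1.98%. That count was 3 without day 10 tumor 312 and 3 without day 15 tumor 313, and the 5 include Adipoq, with its damaged spot, and Fabp4, fitted without tumor 318. Cidec, the widest member measured in both dyes on every array, averaged 3.20 ± 3.40 at day 15 and 1.14 ± 1.67 at day 10 (SD, n = 3 each). Its difference was 2.06 with a standard error of 1.74 (limma, adjusted p = 0.999), so the spread within day 15 exceeded the difference between the days. The fitted difference of Plin1 was 2.68 with a standard error of 1.36, in which all 3 day 10 ratios and that of 318 are limited by background.

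Fabp4 gave the smallest p. Its difference was 1.41 with a standard error of 0.30, an unadjusted p of 0.00434 and an adjusted p of 0.755 in limma's fit, from 2 day 15 tumors and 3 day 10 tumors, with tumor 318 missing. It was also the 1 member whose days did not overlap with day 15 higher, beside 5.21% of all genes. By the second probe the days overlapped, with a difference of 1.12 and a standard error of 0.81, and by the faintest they overlapped with a difference of 0.998 and a standard error of 0.70. With outlier spots kept, a setting chosen after seeing the data, the brightest probe gave 0.74.

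For the others the differences were 1.77 for Adipoq (0.48 with the damaged area left out), 1.16 for Retn, 0.78 for Cfd, 0.64 for Lpl, 0.57 for Lipe and 0.44 for Pparg, with an adjusted p of 0.999 for each in limma's fit. Single tumors moved them. Without day 10 tumor 312 the Cfd difference was -0.10 and that of Adipoq 0.48, and without day 15 tumor 318 those of Cfd and Cidec were 2.02 and 4.02. Without day 15 tumor 313, where hepatoma markers were low, Cidec stood at 0.96, Plin1 at 1.89 and Pparg at 0.10. The median over the members ran from 0.60 without 313 to 2.02 without 318, beside 1.16 with all tumors.

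Set side by side at the same slide position, the members had larger day differences at positions 1 and 2 than at position 3, as single arrays with no test. Tumor 303 minus 302 was above 0 in 9 of 9 members with a median of 1.35, beside 54.1% of all genes and a median of 0.03. Tumor 313 minus 307 was above 0 in 9 of 9 with a median of 1.39, beside 54% of all genes and a median of 0.05. Tumor 318 minus 312 was above 0 in 4 of 8 with a median of 0.01, beside 53.8% of all genes and a median of 0.03. At position 3 the Adipoq difference (1.69) rests on the damaged spot of 312. Plin1 (0.72) and Retn (0.11) were not well above background in Cy5 in 318 or 312, so their differences there are limited by background. For Cidec the 3 differences were 3.51, 2.74 and -0.07, for Cfd 1.35, 0.91 and 0.08, and for Lpl 0.75, 1.39 and -0.24. With position as a block in limma's fit no member was called, and adjusted p-values ran from 0.211 for Adipoq to 0.926 for Pparg. The Adipoq value includes the damaged spot of tumor 312. With 1 array per day at a position, position and single tumor cannot be told apart.

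The 2 dyes gave different accounts of the size of the spread. In the tumor channel alone, quantile-normalized between arrays, the Cfd signal differed 140-fold within day 15, that of Adipoq 98.3-fold and that of Cidec 57.0-fold, against 13.7-fold, 16.3-fold and 69.6-fold by ratio. Raw Cy5 intensities of Cfd were 133990, 166500 and 1528 in day 15 tumors 303, 313 and 318, against 12172, 26141 and 1069 in day 10 tumors 302, 307 and 312. None of the members' spots was saturated.

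The gap between dyes lies in the Cy3 signal, although the labels describe one reference for every array. The log2 Cy3 signal of Cfd was 11.00, 11.28 and 7.25 on the arrays of day 15 tumors 303, 313 and 318, against 8.20, 9.01 and 7.48 on those of day 10 tumors 302, 307 and 312. That of Adipoq was 9.55, 10.00 and 6.54 at day 15, against 6.92, 7.52 and 6.15 at day 10, and that of Retn 9.43, 9.89 and 6.34 at day 15, against 6.69, 7.39 and 6.35 at day 10. In each the Cy3 signal was high on the same arrays as the Cy5 signal. Its low values were not well above background: those of tumors 318 and 312 for all 3 genes, and that of 302 for Adipoq and Retn, so the low ends of these ratios are limits too. After subtraction of local background, Cy3 was 1.73%, 1.74% and 7.63% of Cy5 for Cfd in day 15 tumors 303, 313 and 318, and 2.34%, 1.88% and 9.34% in day 10 tumors 302, 307 and 312. On arrays where both dyes were well above background the share differed between probes: 3.89% to 5.40% for Adipoq, 20.9% to 22.3% for Retn, and 7.75% to 8.41% for the second Retn probe. What made the Cy3 signal move was not tested.

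Plin1, which was too faint in Cy3 to be tested there, had log2 Cy3 signals of 7.42, 7.27 and 6.48 at day 15, against 6.63, 6.76 and 6.85 at day 10, with only the first 2 well above background. Cidec, Lpl, Pparg and Lipe had a steadier reference. The log2 Cy3 signal of Lpl stayed between 12.14 and 12.21 at day 15 and between 12.16 and 12.23 at day 10, and that of Cidec between 9.28 and 9.42 at day 15 and between 9.20 and 9.38 at day 10. A Cy3 range of at least 2 units over the 6 arrays was reached by 3 of 8 members tested, beside 10.9% of all 13932 genes. Without tumor 312 it was again reached by 3 members, beside 1.11% of genes. Between days, none of 9 members passed the test in Cy5 and none of 8 in Cy3 (limma). No gene of the array did in either dye, 0% in both, with 464 genes in Cy5 and 222 in Cy3 at an unadjusted p under 0.05. The day 15 Cy5 mean was above that of day 10 in 9 of 9 members, beside 37.6% of all genes.

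**Figure D3:**
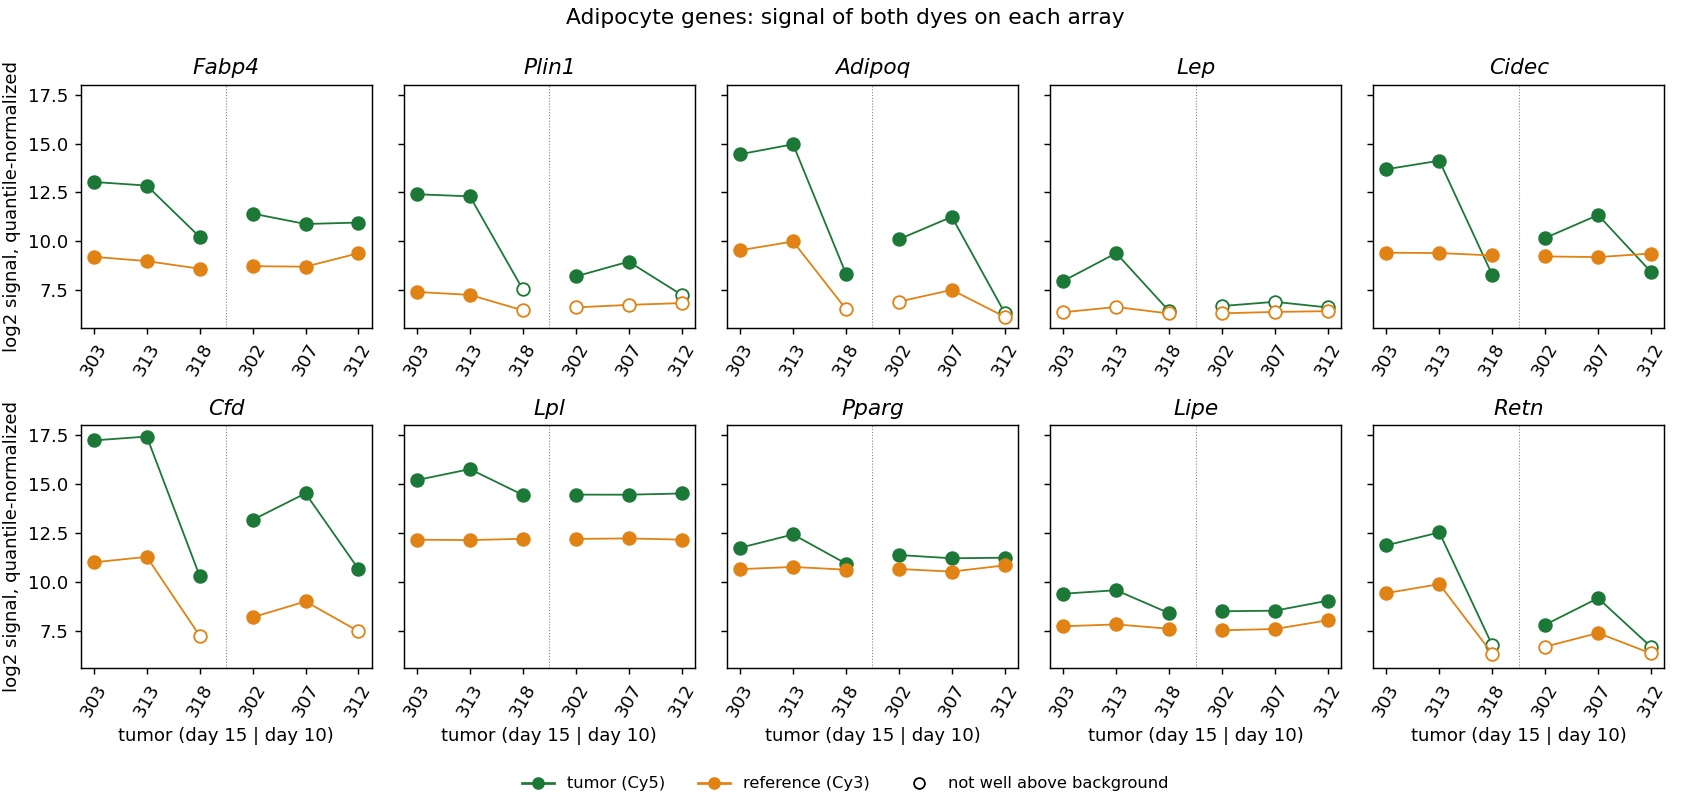
Quantile-normalized log2 signal (y axis) of the tumor dye Cy5 (green) and the reference dye Cy3 (orange) on each array, day 15 tumors left of day 10 tumors; open marks are not well above background, and Fabp4 is drawn from its faintest probe, which has all 6 values. The Cy3 signals of Cfd, Adipoq and Retn follow their Cy5 signals from array to array, while those of Cidec, Lpl, Pparg and Lipe stay level.

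Over all 6 tumors against the blood reference, 8 of 9 members were called higher (adjusted p under 0.05 in limma and a log2 ratio of at least 1), beside 25.5% of 16323 genes. None was called lower, beside 9.75%. The labels describe 1 reference for every array, so these p-values do not measure a spread between blood samples. Mean log2 ratios were 5.38 for Cfd (adjusted p = 0.000269), 3.43 for Lpl (adjusted p = 9.17e-06), 3.43 for Adipoq and 2.62 for Plin1. That of Fabp4 was 3.83 as the mean of the 2 day means, and 3.69 over its 5 arrays. Pparg at 1.42, Lipe at 1.30 and Retn at 1.56 were nearer the reference. Cidec, at 2.17 with 4 of 6 tumors above 0, missed the threshold (limma, adjusted p = 0.0555). With no dye swap, a dye effect on a probe is part of every such ratio. Among the members, for Cfd, Adipoq and Retn the moving Cy3 signal is too. Retn no longer passed without tumor 303, 307 or 313, with an adjusted p of 0.0629, 0.0578 and 0.0544 in limma's fit.

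The wider set of genes that fat cells use was read in the same way, from lists by role. The same shares stand beside every list below. Of all 15802 genes, 54.9% had a positive day difference, 4.46% had a day 15 range of at least 2 units, and 0.057% were called. With so few genes called, no call in a short list says little. Genes of fatty acid and triglyceride synthesis had a positive day difference in 15 of 15 tested, with a median of 0.59 beside 0.02 over all genes, and none was called, beside 0.057% of all genes. Scd1, which desaturates fatty acids, had log2 ratios of 1.61, 2.79 and -1.56 in day 15 tumors 303, 313 and 318, against -1.25, -0.61 and -1.41 in day 10 tumors 302, 307 and 312. Fasn, the fatty acid synthase, had 0.71, 1.21 and -0.54 at day 15, against -1.24, -1.25 and -0.87 at day 10. For both, 303 and 313 stood above the other 4 tumors, and for Fasn day 10 tumors 302 and 307 were the lowest.

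Dgat2, which makes the final step to triglyceride, had 3.93, 4.74 and 0.57 at day 15, against 2.33, 3.27 and 0.62 at day 10, the order of the droplet proteins. Thrsp, a regulator of lipogenesis, had 4.48, 4.31 and 0.29 at day 15, against 2.46, 3.11 and 0.04 at day 10, and Gpd1, which supplies glycerol phosphate, 4.76, 4.89 and 1.44 against 2.77, 2.66 and 0.25. The spots of Thrsp and Gpd1 in tumor 312 lie in the damaged area. The log2 Cy3 signal of Gpd1 moved as well, with 9.75, 9.68 and 8.16 at day 15, against 8.34, 8.43 and 6.64 at day 10. A day 15 range of at least 2 units was reached by 5 of the 15, while Gpam, Scd2 and Elovl6 spanned less than 1 unit.

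Of 7 droplet coat genes outside the members, 6 had a positive difference (median 0.19) and none was called. In Cy5 alone, 3 of the 7 were higher at day 15 (median -0.04), beside 37.6% of all genes. Plin4, a perilipin of white fat, had log2 ratios of 5.76, 6.28 and 0.83 at day 15, against 3.55, 3.65 and 2.39 at day 10, the widest of the list. The perilipins found in many cell types stood apart from it: Plin3 lay between 0.45 and 0.82 at day 15 and between 0.60 and 0.68 at day 10, and Plin2 reached 2.57 in tumor 313 alone and lay between 0.70 and 1.64 in the other 5. Cidea, a droplet protein of brown fat, was well above background in Cy5 on 2 arrays, and Cideb on none.

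In lipid uptake and lipolysis, 9 of 10 tested genes had a positive difference (median 0.50) and none was called. Cd36, a fatty acid transporter that endothelium and macrophages also express, had 5.08, 5.37 and 4.03 at day 15, against 4.80, 3.49 and 1.97 at day 10. Its log2 Cy3 signal moved too, with 6.99, 8.57 and 7.03 at day 15, against 7.27, 7.37 and 10.14 at day 10. In Cy5 alone, Cd36 in tumor 312 stood at 11.49, beside 11.58 in 302, 10.54 in 307 and 10.80 in 318. Mgll, which cleaves monoglyceride, had 5.57, 5.80 and 5.35 at day 15, against 4.89, 4.82 and 4.74 at day 10, with no overlap of the days (limma, adjusted p = 0.662). Pnpla2, the lipase that starts triglyceride breakdown, lay between 0.80 and 1.56 at day 15 and between 0.71 and 0.80 at day 10.

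Of 11 transcription factors of the fat lineage, 10 had a positive difference, with a median of 0.39, and none was called. Cebpd, an early factor of differentiation, had the widest day 15 range, with log2 ratios of 5.03, 3.90 and 2.97 at day 15, against 3.81, 4.17 and 2.75 at day 10. Cebpa, which sustains the mature fat cell program, had 2.08, 2.92 and 1.25 at day 15, against 1.80, 1.86 and 1.52 at day 10, and Ebf2 had 4.14, 4.35 and 2.44 against 2.82, 2.99 and 2.58. Like Pparg, Cebpa and Ebf2 were lowest in 318 and highest in 313. Other factors departed from that order. Zfp423 had -0.75, -0.58 and -1.12 at day 15, against -1.72, -1.64 and -1.53 at day 10. Tumor 318 thus lay above every day 10 tumor for Zfp423 (limma, adjusted p = 0.709). Ppara was lower at day 15 with no overlap, at 0.82, 0.23 and 0.77, against 1.15, 0.93 and 1.02. A Ppara spot of tumor 312 lies in the damaged area. Nr1h3 stood at 3.15 in 318, close to its highest value, 3.18 in 313.

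Among genes of insulin and adrenergic response, 8 of 11 had a positive difference (median 0.22), none called. Car3, a carbonic anhydrase abundant in fat and in muscle, had 6.08, 6.22 and 2.36 at day 15, against 4.99, 4.81 and 4.32 at day 10. Its log2 Cy3 signal moved too, with 9.65, 9.86 and 6.60 at day 15, against 7.69, 7.51 and 7.96 at day 10. Slc2a4, the insulin-regulated glucose transporter of fat and muscle, had 2.94, 3.66 and -0.02 at day 15, against 1.56, 0.83 and 0.73 at day 10. Sncg, a synuclein abundant in white fat, had 2.51, 3.24 and 0.67 at day 15, against 1.89, 1.37 and 0.98 at day 10. The Slc2a4 and Sncg spots of tumor 312 lie in the damaged area. Insr and Irs1 had differences of 0.04 and -0.09. Of 9 adipokines and receptors outside the members, 5 had a positive difference (median 0.14), none called, and the receptors Adipor1 and Adipor2 had differences of 0.14 and -0.11. Rbp4, a retinol carrier that liver cells also make, had -0.10, -2.47 and 0.78 at day 15, against -0.02, -0.07 and 0.01 at day 10, and so was low in tumor 313 as the hepatoma markers were.

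Of 7 brown and beige fat genes tested, 3 had a positive difference (median -0.12) and none was called, and Ucp1, the uncoupling protein that defines brown fat, was not well above background on any array. Cox8b and Cox7a1, which muscle also expresses, were -1.49 and -0.85 between the days. Prdm16, a regulator of brown and beige fat, had 2.63, 3.33 and 1.94 at day 15, against 2.73, 2.54 and 2.17 at day 10. Dio2, which activates thyroid hormone, had 2.45, 1.84 and 1.63 at day 15, against 1.74, 1.98 and 0.86 at day 10. Preadipocyte and mesenchymal genes were positive in 8 of 9 (median 0.34, none called) and reached a day 15 range of 2 units in none: Cd34 lay between 5.46 and 6.03 at day 15 and between 5.39 and 5.54 at day 10.

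Markers of other cell types a subcutaneous sample could hold were summed in the same way. Skeletal muscle genes were lower at day 15 in 12 of 12, with 4 (Myh4, Tnnc2, Myh1 and Acta1) called lower, beside 0.0443% of all genes, and a median difference of -3.50. Their median log2 ratio was 0.03, 0.02 and -0.08 in day 15 tumors 303, 313 and 318, against 4.19, 2.78 and 3.84 in day 10 tumors 302, 307 and 312. The Cy3 signal of muscle genes moved in the same direction, with a median day difference of -2.38 over the 10 tested in that dye. Tumors 302 and 312, both high in muscle genes, differed in Plin1, Cidec and Cfd. Endothelial genes were positive in 12 of 12 (median 0.62, none called), with medians of 3.54, 3.70 and 3.09 at day 15, against 3.14, 2.73 and 2.68 at day 10. Of the 12 endothelial genes, 8 had an unadjusted p under 0.05, beside 3.85% of all genes, and 7 had day 15 above day 10 with no overlap, beside 5.21%. Macrophage genes were positive in 12 of 12 (median 0.16, none called), with medians of 5.56, 5.53 and 4.90 at day 15, against 5.14, 5.13 and 4.65 at day 10. In Cy5 alone, 5 of the 12 macrophage genes were higher at day 15 (median -0.07), beside 37.6% of all genes. The endothelial genes were higher in Cy5 in 12 of 12 (median 0.56).

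Peripheral nerve genes were positive in 7 of 7 (median 0.49, none called), with medians of 2.42, 2.22 and 1.06 at day 15, against 1.62, 1.60 and 0.88 at day 10, the same order of tumors in outline as the adipocyte genes. Skin and mammary epithelium were thin: 4 of 10 and 2 of 8 of their markers were tested, with median log2 ratios between -0.64 and -0.24 and between -2.31 and -1.17 at day 15, against -0.59 to -0.50 and -1.70 to -1.56 at day 10. The skin markers Krt1, Lor, Ivl and Trp63 and the milk genes Csn2 and Wap were well above background in Cy5 on at most 1 array. The part of these other cell types in the adipocyte gene values was not tested. The hepatoma median was lowest in 313, the tumor with the highest mean of the adipocyte genes, and highest in 318 and 312, the 2 with the lowest; tumor 303 departs from that, with a hepatoma median above those of 302 and 307.

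**Figure D4:**
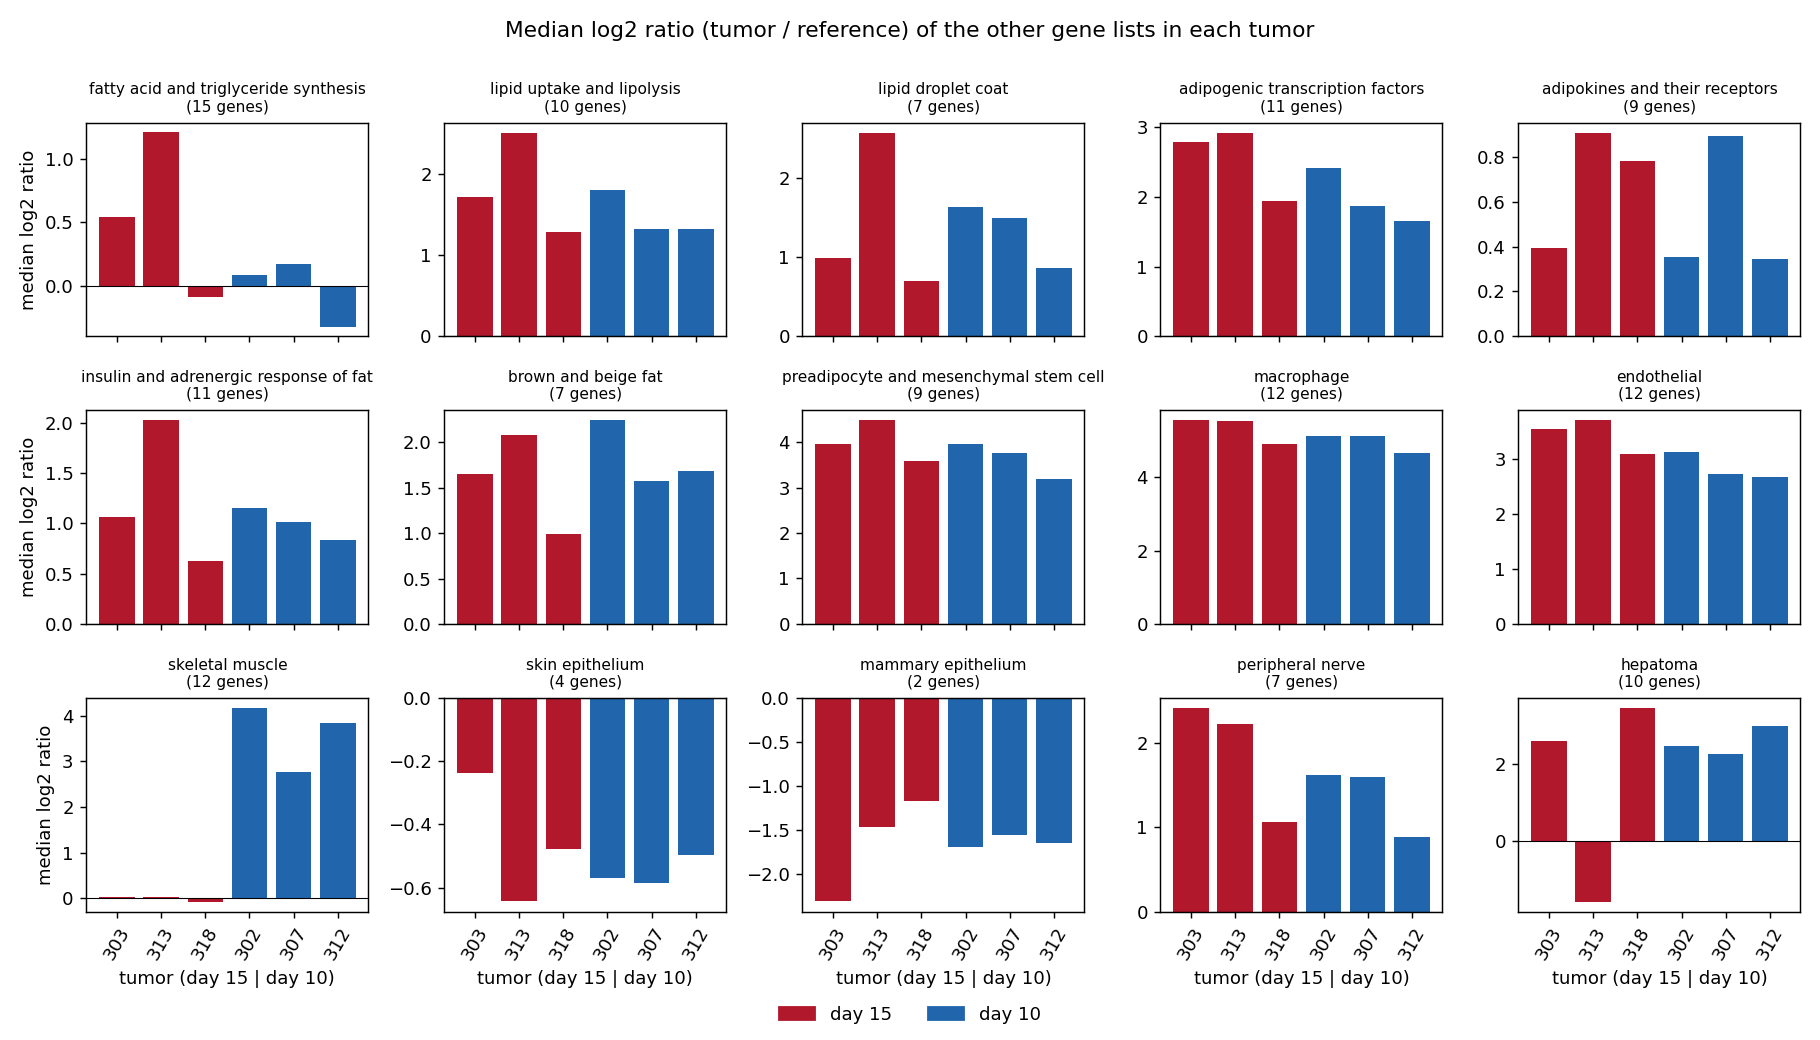
Median log2 ratio, tumor over blood reference (bars from 0), of each other gene list in the 3 day 15 tumors (red, left) and the 3 day 10 tumors (blue, right); the y axes differ between panels. Lipid synthesis and nerve genes are higher in 303 and 313 than in 318, muscle genes stand high at day 10, and hepatoma genes are low in 313.

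Genes most like the members were named by the root-mean-square distance of their centred log2 ratios from the members' mean over 6 tumors, as a description among 12611 genes. The nearest 8 with gene names were Mup4 (0.19), Dgat2 (0.39), Cyp2f2 (0.39), Ntrk2 (0.41), Gsn (0.46), Slc36a2 (0.48), Lpar1 (0.49) and Spon2 (0.50). For scale, the members themselves lay between 0.15 (Retn) and 1.11 (Cidec) from their own mean. Mup4 had log2 ratios of 4.46, 4.52 and 1.18 in day 15 tumors 303, 313 and 318, against 2.63, 3.32 and 1.27 in day 10 tumors 302, 307 and 312. It belongs to a family of near-identical major urinary protein genes, whose members this probe may not tell apart. Slc36a2, an amino acid transporter, had 3.52, 4.63 and 1.58 at day 15, against 2.14, 1.76 and 0.96 at day 10, and Gsn (gelsolin, an actin-severing protein) had 6.41, 6.40 and 3.80 against 4.98, 5.15 and 4.39. None of the 8 was called between the days, beside 0.057% of all genes.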

How the data were processed

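Two-colour Agilent arrays of 6 tumors were used. Per the file headers, the deposited scanner files hold mean and local background intensity per spot and dye, not normalized, and a log10 ratio of red over green, from Agilent Feature Extraction 9.1.3.1 per the submitters' processing notes. The authors' deposited value table holds the same log10 ratios, with a largest difference of 0. No genome build is given in the sources used here.

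In limma 3.58.1 under R 4.3.3, intensities were corrected with normexp (offset 50), loess-normalized within arrays to log2 ratios, and fitted with lmFit and eBayes (2-sided, Benjamini-Hochberg, threshold 0.05); outlier spots were left out. Quantile-normalized single dyes were fitted alike. The brightest probe stands for a gene. The day comparison took genes whose Cy5 signal cleared background on 3 or more arrays, and 16323 genes were tested against the reference. Of 41174 probes, 8148 keep the printed name; others were named through RefSeq by accession, symbol or older symbol. The damaged area was found from local medians over 21 by 11 spots at least 1 log2 unit below the other arrays. Of these steps, only the limma fit was tested on simulated data, with log2 ratios changed by known sizes. The number of arrays limits the precision. Members and lists were chosen with earlier results of these data known. Besides the members, named genes are those of the lists with the largest differences or a defining role, and the 8 likest genes; a probe named only by a clone was passed over, and list genes beyond the largest were picked after their values were seen.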

Additional observations from a re-analysis of the deposited data

How the results depend on the processing

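No member was called between the days under any of the 18 alternatives (limma, adjusted p), and the median of the members' differences, 1.16, lay between 0.55 and 2.05 under them and between 0.60 and 2.02 on leaving out single tumors. The 9 positive differences were 8 without tumor 312, where Cfd was -0.10, and 6 of 6 tested with all 6 arrays required above background. That filter also left 5 members called against the reference, in place of 8, since it drops Plin1, Adipoq and Retn. Leaving out single tumors gave 7 to 9. Median centring in place of loess put the median of all genes at -0.30 between the days, in place of 0.02, and at -0.34 against the reference, in place of 0.22; Pparg then stood at 0.68 against the reference and was not called, and its day difference was 0.05. Cidec was called against the reference with array position as a block (adjusted p = 0.00398), without tumor 312 (0.0489) and without tumor 318 (0.00214). With the damaged area left out, the Adipoq day difference was 0.48 in place of 1.77. Genes called higher between the days were 2 and numbered 0 to 3 on leaving out single tumors; those called lower were 7 and numbered 2 to 24. With all 6 arrays above background these counts were 1 and 0, with array position as a block 0 and 3, and in Cy5 alone 0 and 0. The tumor dye alone gives no value against the reference. The days share no replicate numbers, so tumors were paired by slide position alone; that block called no member between the days. Members with a difference of at least 1, 5 in all, were 2 with all 6 arrays above background and 3 to 7 on leaving out single tumors. Background limits Lep, Plin1 outside 303 and 313, Cfd in 318 and 312, and Adipoq and Retn in 318, 312 and 302.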
